A study of Homo sapiens with 47 samples.

Results

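A set of 10 genes of the calcium-binding S100 and annexin families was followed across single circulating tumor cells (CTCs) and cultured cells of one breast cancer line: S100A2, S100A3, S100A4, S100A6, S100A10, S100A11, S100A13, S100A14, S100A16 and ANXA2. They were taken by symbol from the 25739 genes of the normalized table, and all 10 had a row. The CTCs were MDA-MB-231-LM2 (LM2) cells labeled with GFP, a lung-tropic derivative of a human triple-negative breast cancer line, that had entered the blood of NOD/SCID gamma (NSG) mice, 6 to 8 weeks old when injected. The line was placed in the mammary fat pad, metastasis was spontaneous, and blood was taken once the primary tumor had reached its terminal volume, passed through a size-based microfluidic device and searched for GFP-positive cells, which were picked one by one. The table held 37 CTCs from 5 mice (2 from mouse 5541, 4 from 5542, 10 from 5545, 17 from 5546 and 4 from 5549) and 6 LM2 cells grown in culture, all read by SMARTseq2, a full-length single-cell RNA-seq protocol. NSG mice lack lymphocytes and natural killer cells and keep their red cells, platelets and myeloid cells. Mice served as replicates of the CTC group. The 6 cultured cells came without any label of separate cultures and were taken as one sample, so CTCs and culture were compared by size and not by a test between cells. In the names of mouse 5546, 9 CTCs carry the letter c and 8 the letter s, and the meaning of the letters was not given.

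S100 proteins are small EF-hand proteins that change shape when they bind calcium and then grip a partner. S100A10 is the exception that no longer binds calcium and is held in a tetramer with annexin A2, a phospholipid-binding protein of the plasma membrane that, with S100A10, docks plasminogen and its activator at the cell surface. S100A4 is known from invasive and mesenchymal tumor cells, S100A11 also binds an annexin, and most S100 genes sit side by side in the epidermal differentiation region of chromosome 1.

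Reads assigned to genes ranged from 469614 to 2041333 in the CTCs and from 776949 to 1186197 in the cultured cells, and no molecular identifiers were used, so intervals on cell counts cover counting error only. A group of 4 CTCs stood apart (5545-6, 5549-6, 5546-s7 and 5546-s9): their median Spearman correlation with the other CTCs over all genes was 0.379 to 0.401, against 0.490 to 0.666 for the other 33. VIM, the mesenchymal filament gene, and KRT8 and KRT18, epithelial keratins, had reads in all 37 CTCs and all 6 cultured cells. Reads of 3 listed erythroid genes summed to 0 in every cultured cell and to a median of 986 normalized counts in the CTCs (0 to 12509), led by HBB with reads in 35 CTCs, and 6 listed myeloid genes, S100A9 among them, summed to a median of 42.0 (0 to 778) against 0 to 7.96 in culture. Of the other markers of blood cells, PTPRC, the pan-leukocyte gene, had reads in 11 CTCs and the platelet genes PPBP and PF4 in 2 and 3. The reads had been aligned to the human genome alone although the cells came out of mouse blood, and the part of these reads in any result below was not tested.

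All S100 members lie on the minus strand of chromosome 1 (GRCh38) and follow each other as S100A10 (chr1:151982915-151993859), S100A11 (chr1:152032506-152047907), S100A6 (chr1:153534599-153536244), S100A4 (chr1:153543613-153550136), S100A3 (chr1:153547329-153549258), S100A2 (chr1:153561108-153567890), S100A16 (chr1:153606886-153613145), S100A14 (chr1:153614255-153616986) and S100A13 (chr1:153618787-153631360). ANXA2 lies at chr15:60347134-60402883, also on the minus strand. The bases just before the transcription start are shown for 4 of them: S100A10, S100A11 and ANXA2, whose levels moved together across CTCs, and S100A2, which had the widest spread of ratios between mice. Each run is the 250 bases before the start listed by RefSeq (GRCh38.p14, first start where several are given), 5′ to 3′ on the minus strand, with capitals marking TGANTCA (the AP-1 motif), GGGCGG (a GC box) or TATAAA on either strand. The windows were chr1:151993860-151994109 for S100A10, chr1:152037005-152037254 for S100A11, chr15:60397987-60398236 for ANXA2 and chr1:153565845-153566094 for S100A2.
S100A10: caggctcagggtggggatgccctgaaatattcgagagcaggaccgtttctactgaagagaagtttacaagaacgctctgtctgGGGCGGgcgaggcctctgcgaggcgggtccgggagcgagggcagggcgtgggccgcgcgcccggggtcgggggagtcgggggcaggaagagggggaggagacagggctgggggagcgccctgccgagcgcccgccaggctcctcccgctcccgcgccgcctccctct
S100A11: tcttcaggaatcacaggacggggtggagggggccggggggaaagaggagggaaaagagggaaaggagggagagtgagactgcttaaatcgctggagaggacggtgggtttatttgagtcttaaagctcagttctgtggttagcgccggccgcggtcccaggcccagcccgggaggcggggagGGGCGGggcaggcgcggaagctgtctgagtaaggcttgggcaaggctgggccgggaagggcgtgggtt
ANXA2: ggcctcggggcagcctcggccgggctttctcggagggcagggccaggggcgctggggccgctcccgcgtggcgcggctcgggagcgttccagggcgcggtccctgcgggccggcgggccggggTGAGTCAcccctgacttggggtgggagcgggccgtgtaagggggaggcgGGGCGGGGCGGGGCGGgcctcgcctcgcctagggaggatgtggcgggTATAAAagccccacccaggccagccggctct
S100A2: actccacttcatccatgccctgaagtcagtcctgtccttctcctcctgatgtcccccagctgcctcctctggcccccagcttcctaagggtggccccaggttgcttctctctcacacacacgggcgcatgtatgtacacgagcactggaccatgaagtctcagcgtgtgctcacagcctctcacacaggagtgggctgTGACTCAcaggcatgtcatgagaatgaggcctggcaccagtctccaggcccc
The ANXA2 window held one AP-1 motif, a run of 3 overlapping GC boxes and a TATAAA starting 31 bases before the start. S100A10 and S100A11 each held a single GC box, 167 and 68 bases before the start, and neither other motif, and S100A2 held a single AP-1 motif starting 52 bases before the start. Over the listed starts of the 10 genes, an AP-1 motif lay in the windows of 3 (S100A2, S100A3 and ANXA2), a GC box in those of 7 and a TATAAA in those of 3 (S100A4, S100A13 and ANXA2). Among 34943 windows of the same length before human gene starts, 6.59% held an AP-1 motif, 42.5% a GC box and 10.8% a TATAAA. These are shares of single windows, whereas a member counted if any of its starts held the motif. S100A13 had 3 listed starts and S100A2 and S100A16 had 2 each, so the counts and shares are not on a like unit.

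ANXA2 was the most abundant of the 10 genes by normalized count. It had reads in all 37 CTCs and ranked 4th of all genes, with a mean of 9903 ± 2505 normalized counts (SD, n = 5 mice) beside 6862 in culture. The CTCs of mouse 5541 gave 6922 and 13051, those of 5542 gave 12210.5, 14506, 12253 and 8432, and those of 5549 gave 2932, 7549.7, 13799.8 and 556. The lowest, median and highest CTCs were 4955, 12132 and 19404 in mouse 5545 and 755, 8531 and 19178 in mouse 5546, against 5296, 7112 and 7792 in the cultured cells. Most CTCs thus lay above the culture, but 8 lay below its lowest cell while 25 exceeded its highest. The coefficient of variation was 0.513 over CTCs and 0.139 over cultured cells.

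S100A10, its tetramer partner, was present in all 37 CTCs at 2397 ± 763 normalized counts over mice, next to 2363 in culture. Mouse 5541 gave 2301 and 2529, mouse 5542 gave 4081, 2156, 2235 and 1582, and mouse 5549 gave 1332, 2363, 1087 and 113. Mouse 5545 ran from 956 through a median of 2575 to 5787 and mouse 5546 from 733 through 2331 to 5184, while cultured cells ran from 1520.4 through 2238 to 3307. By these size factors 10 CTCs lay above and 9 below all cultured cells. By RPM, each cell's reads scaled to the same total, 22 lay above and 2 below, and the fold of CTCs over culture was 1.67 in place of 1.01.

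S100A11 followed the same outline at a lower level. It had a mean of 1643 ± 685 over mice and 1364 in culture, and reads in all 37 CTCs. Mouse 5541 gave 2258 and 2302, mouse 5542 gave 2023, 1966, 3219 and 933, and mouse 5549 gave 549.9, 923.5, 1273 and 89.9. Mouse 5545 spanned 657 to 4130.5 around a median of 1708 and mouse 5546 spanned 168 to 3218 around 1121, but the cultured cells kept within 1057 to 1668 around 1342. In all, 15 CTCs were below and 12 above that narrow range by size factors, and 6 were below and 22 above it by RPM. CTC 5549-6 held the lowest ANXA2, S100A10 and S100A11 of all 37 cells, and it also carried the highest erythroid sum (12509), the highest S100A9 (568) and one of the lower read totals (588141).

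S100A6, known as calcyclin, was the steadiest member. Its mean was 4398 ± 1044 over mice and 3623 in culture, and its coefficient of variation over CTCs, 0.422, was the smallest of the 10 genes. Mouse 5541 gave 2324 and 4137, mouse 5542 gave 4398, 3867, 5321 and 4715, and mouse 5549 gave 2604, 3182, 3308 and 6278. Mouse 5545 ran from 1384 through 4389 to 5803 and mouse 5546 from 1861 through 5552 to 12294, against 2939, 3381 and 4843 in culture. The CTC with the least S100A11, 5549-6, stood at 6278 for S100A6, above every cultured cell. The highest values, 12294 and 10258, came from CTCs 5546-s4 and 5546-s1, whose S100A9 stood at 324 and 335.

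S100A4, a metastasis-associated binder of nonmuscle myosin, was far more uneven. Its mean was 727 ± 534 over mice and 235 in culture. Mouse 5541 gave 3.38 and 415, mouse 5542 gave 2940.5, 12.0, 369.6 and 2581, and mouse 5549 gave 229, 703, 50.2 and 25.0. Mouse 5545 ran from 17.6 through 418 to 3015 and mouse 5546 from 74.3 through 732 to 3109, with cultured cells at 62.7, 155 and 553. High and low CTCs thus came from the same blood, although every CTC had at least some S100A4 reads. CTC 5545-6, the highest of its mouse, was among the 4 that stood apart.

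S100A16, a widely expressed S100 protein, had reads in 36 of 37 CTCs (97.3%, exact 95% interval 85.8 to 99.9%), at 1395 ± 644 over mice and 903 in culture. Mouse 5541 gave 988 and 1453, mouse 5542 gave 2612, 2544, 2871 and 1968, and mouse 5549 gave 143, 977, 425 and 1669. Mouse 5545 ran from 148 through 1199 to 2963 and mouse 5546 from 0 through 985 to 4965, and cultured cells from 509 through 813 to 1398. All 4 CTCs of mouse 5542 exceeded every cultured cell, and the one CTC without reads, 5546-s9, was among the 4 that stood apart.

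S100A2, an epithelial S100 gene responsive to p53 family factors, had the largest spread between mice, as the SD of the log2 ratio to culture (2.41). Mouse 5541 gave 7.31 and 9.06, mouse 5542 gave 81.8, 21.2, 0 and 90.2, and mouse 5549 gave 443, 171, 15.8 and 56.6. Mouse 5545 ran from 4.43 through 296 to 1687 and mouse 5546 from 79.0 through 310.0 to 1336, beside 10.0, 85.4 and 152 in culture. Mouse means therefore ranged from 8.19 to 476, and both CTCs of mouse 5541 were among the 4 CTCs below every cultured cell, of which 2 were left by RPM, neither of them from mouse 5541. The mean was 230.5 ± 220.1 over mice and 88.0 in culture, with reads in 36 CTCs.

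S100A13, which takes part in the unconventional release of growth factors, had reads in 35 CTCs at 118 ± 54.0 over mice and 115 in culture, with CTCs from 0 to 851. S100A3, known from the hair cuticle, was found in 22 CTCs (59.5%, exact 95% interval 42.1 to 75.2%) and 5 of 6 cultured cells, at 12.96 ± 11.4 over mice and 23.4 in culture. Neither CTC of mouse 5541 had an S100A3 read. S100A14, an epithelial gene, had reads in only one CTC, 5545-11, at 6.42, and in only one cultured cell, LM-P4, at 1.61. S100A13 shares exon sequence with the antisense gene S100A1, and the reads were counted without regard to strand, so the assignment between them is uncertain, although S100A1 had reads in a single CTC. S100A3 lies within the span of S100A4 on the same strand without shared exons.

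**Figure D1:**
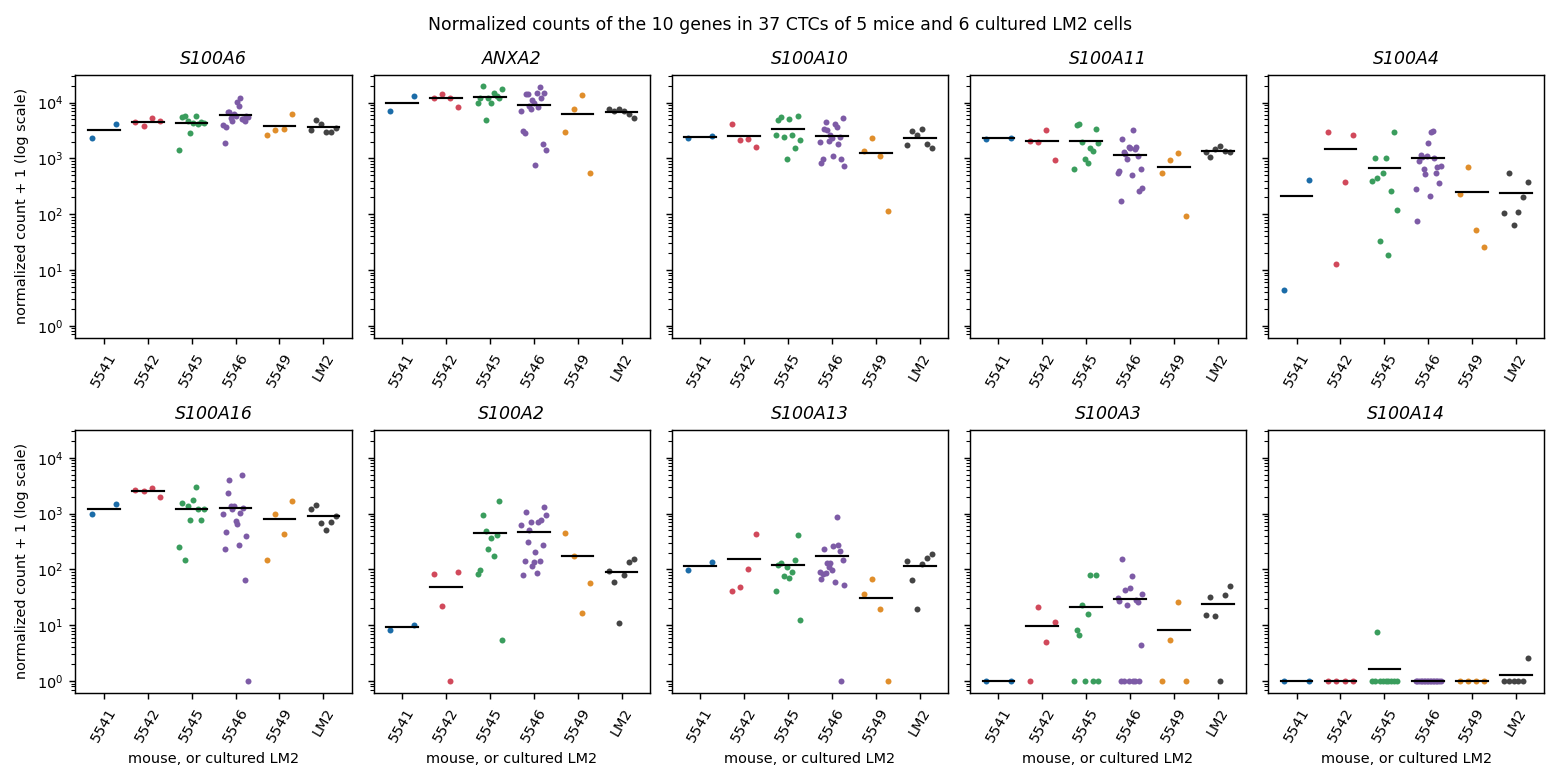
Each panel plots one gene, with the normalized count plus 1 on a log axis against the mouse of origin or the LM2 culture. Points are single cells (37 CTCs and 6 cultured cells) and black lines are group means. S100A6 points spread least, S100A4 and S100A2 spread over orders of magnitude, and S100A14 is at 0 in all but 2 cells.

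Between genes, levels were compared per kilobase of the Ensembl canonical transcript. On that scale S100A6 led with 10133 ± 2406 normalized counts per kb over mice, followed by ANXA2 with 6372 ± 1612, S100A10 with 3572, S100A11 with 2918, S100A4 with 1417, S100A16 with 1191, S100A13 with 247, S100A2 with 236, S100A3 with 17.5 and S100A14 with 0.122. S100A6 was above ANXA2 and ANXA2 above S100A10 in 5 of 5 mice. The pair S100A10 and S100A11 was in this order in 4 of 5 mice, with a mean log2 ratio of 0.35 ± 0.41, S100A4 and S100A16 in 3 of 5, and S100A13 and S100A2 in 2 of 5, so these neighbors were not separated beyond the spread between mice. Per kb, S100A6 ranked 3rd and ANXA2 9th of 25590 genes with a length in the CTCs, and 5th and 17th in culture. By CTC, S100A6 was the leading member per kb in 31 cells and ANXA2 in the other 6. The 10 genes took 2.66% of assigned reads in the average CTC (0.897 to 5.19%) and 1.15% in the average cultured cell (0.871 to 1.45%).

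Whether the CTCs carried more or less of these genes than the culture was asked with a rule of size: a gene met it when the mean of each of the 5 mice lay at least 2-fold from the culture mean in 1 direction (1 added to both) and the larger overall mean was at least 8. None of the 9 members that reached the minimum met the rule in either direction, whereas among 9164 genes considered 24 (0.262%) met it as higher and 2298 (25.1%) as lower in CTCs. On the log2 scale the mean of mice over the culture mean was 1.62 for S100A4, 1.38 for S100A2, 0.63 for S100A16, 0.53 for ANXA2, 0.28 for S100A6, 0.27 for S100A11, 0.03 for S100A13, 0.02 for S100A10 and -0.81 for S100A3. The spread of these ratios between mice (SD) was 1.23 for S100A4 and 2.41 for S100A2, against 0.40 for ANXA2 and 0.33 for S100A6. S100A4 was above the culture in 4 of 5 mice, by 2.64 on the log2 scale in mouse 5542, 2.10 in 5546, 1.53 in 5545 and 0.10 in 5549, and stood at -0.17 in mouse 5541. S100A2 was at 2.42 in mouse 5546 and 2.34 in 5545 but at -0.85 in 5542 and -3.28 in 5541. Mouse 5549 was below the culture for 6 of the 9 members that reached the minimum, with S100A10 at -0.95, S100A11 at -0.94 and S100A13 at -1.90. In that mouse the median log2 ratio was -0.26 for the members and -1.82 for all genes considered, each the lowest of the 5 mice. The low values there were thus not particular to the members.

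The median log2 ratio of the 10 genes was 0.27 and that of all genes considered was -1.20. Without the minimum on the mean the median of all genes was -0.03, and 8 of the 10 lay above it. Normalized counts summed to 1.68 times more per cultured cell than per CTC, and this moves every ratio. With RPM in place of the authors' size factors, the medians became 1.00 for the 10 genes and -0.45 for all genes, and again none of the 10 met the rule. S100A4 then stood at 2.36, S100A16 at 1.32, ANXA2 at 1.22 and S100A6 at 1.02, each above the culture in 5 of 5 mice. S100A10 at 0.74, S100A11 at 0.97 and S100A13 at 0.82 were above it in 4 of 5 mice, S100A2 at 2.28 in 3 and S100A3 at 0.02 in 2. By RPM, 33 CTCs exceeded every cultured cell in S100A6 and 30 in ANXA2, against 17 and 25 by size factors. Among 9164 genes considered by size factors, 95 were above the culture in 5 of 5 mice, and no member was. The shares of all genes behind these counts by RPM were not computed, so how unusual the members are on that scale was not tested. With size factors and without the 4 CTCs that stood apart, the median of the 10 genes was 0.27.

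edgeR's quasi-likelihood test on recovered reads, summed per mouse and set against the one culture sum, called 0 of 13813 genes at an adjusted p of 0.05, that is 0% in each direction. In this fit the culture was assumed to vary as the mice do. Unadjusted p-values are not given, because 1 culture sum has no spread of its own and the members were chosen with earlier results of these data known. DESeq2 on the same sums called 18 genes as higher and 2 as lower, and no member was among these 20. In edgeR the median log2 fold change of all genes was 0.31. Of the 9 members tested there, S100A4 stood at 3.01, S100A2 at 2.76, S100A16 at 1.93, ANXA2 at 1.84 and S100A11 at 1.57. S100A6 was at 1.55, S100A10 at 1.36, S100A13 at 1.30 and S100A3 at 0.65.

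**Figure D2:**
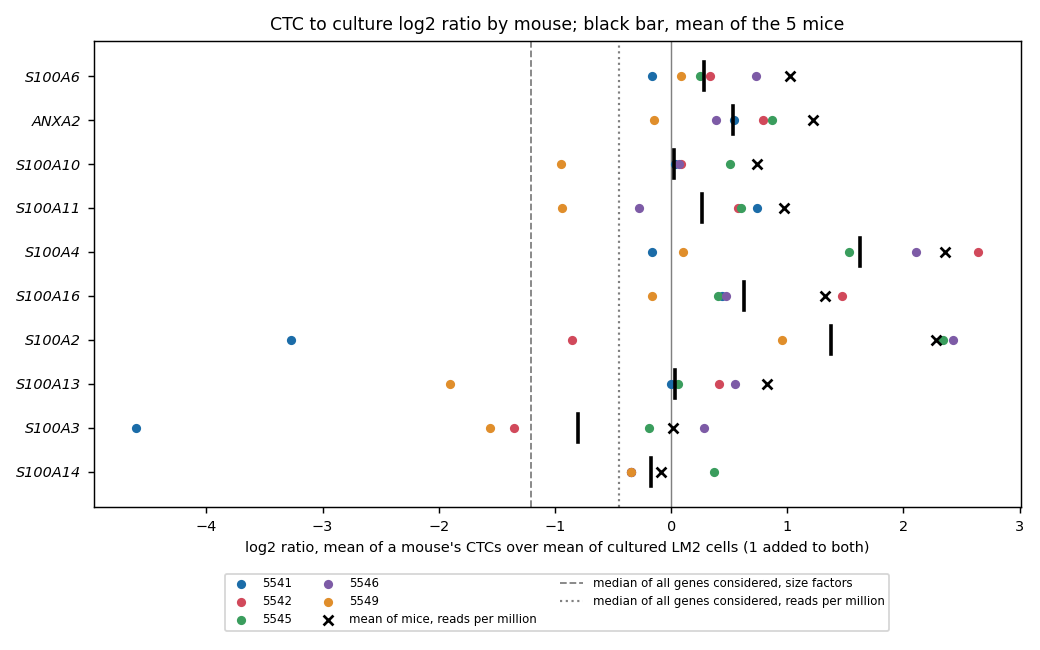
The horizontal axis is the log2 ratio of the mean of a mouse's CTCs to the mean of the cultured cells, 1 added to both. Colored points are the 5 mice, the black bar is the mean of mice by size factors and the cross the same by RPM, and the dashed and dotted lines mark the medians of all genes on each scale (-1.20 and -0.45). S100A6 and ANXA2 points lie close together near the zero line and S100A2, S100A3 and S100A4 points lie far apart.

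Across the 37 CTCs, S100A10, S100A11 and ANXA2 varied together. Spearman's rho was 0.66 between S100A11 and ANXA2, 0.60 between S100A10 and S100A11 and 0.54 between S100A10 and ANXA2, while the 36 pairs among the 9 genes (S100A14 left out) had a median of 0.26, ranged from -0.23 to 0.66 and were positive in 32. These are descriptions over cells that share mice, libraries and a size factor per cell, and carry no p. After ranking within each mouse the same 3 pairs gave 0.69, 0.59 and 0.48, and with RPM they gave 0.58, 0.53 and 0.42. S100A10 with ANXA2 was then no longer among the 3 highest pairs. Within mice, S100A4 with S100A10 (0.55) and S100A6 with S100A11 (0.53) passed it. With RPM, S100A4 with S100A6 (0.50), S100A2 with S100A6 (0.49) and S100A2 with S100A13 (0.49) did. Mice were not alike here: S100A10 with ANXA2 gave 0.75 over the 17 CTCs of mouse 5546 and 0.09 over the 10 of mouse 5545. Without the 4 CTCs that stood apart, S100A11 with ANXA2 was still the highest pair, at 0.56. S100A10 with ANXA2 was 0.42 and S100A10 with S100A11 0.45. Above both were S100A6 with S100A10 (0.54), S100A6 with S100A13 (0.52), S100A4 with S100A6 (0.48) and S100A2 with S100A13 (0.46).

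S100A6 was only loosely tied to ANXA2, at 0.19 over all CTCs. Within mouse 5546 it was 0.98 over the 9 c libraries and -0.17 over the 8 s libraries. S100A2 and S100A16 had the lowest value, -0.23. ANXA2 and S100A16 were both lower where the share of mitochondrial reads was higher, with rho of -0.64 and -0.59. S100A13 (-0.41), S100A11 (-0.40) and S100A10 (-0.38) had the same sign and S100A6 was at -0.14. Over all CTCs the genes S100A10, S100A11 and ANXA2, which varied together, thus all moved with the mitochondrial share. Mice differed in this: rho was -0.66, -0.64 and -0.79 in mouse 5546 but 0.47, 0.61 and -0.16 in mouse 5545. Without the CTCs that stood apart it was -0.23, -0.25 and -0.56. The part of the mitochondrial share in the correlations of these genes was not tested. S100A6 instead moved with S100A9 (0.53) and with the erythroid sum (0.52), a relation that was weaker within mice (0.34 and 0.28). With S100A9 it was 0.58 over mouse 5546 and -0.21 over mouse 5545, and whether reads from other cells took part was not tested.

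**Figure D3:**
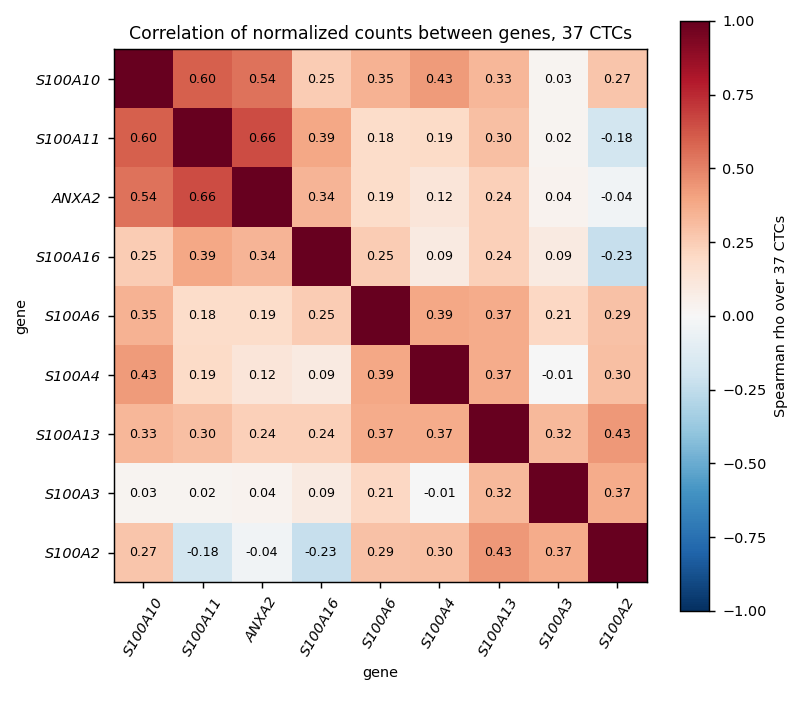
Each square gives Spearman's rho between the normalized counts of 2 genes over 37 CTCs, from -1 (blue) to 1 (red). The block of S100A10, S100A11 and ANXA2 at the upper left holds the 3 highest values, 0.54 to 0.66, and the square of S100A2 with S100A16 the lowest, -0.23.

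The genes most alike in pattern were sought among 7013 others with reads in at least 50% of CTCs. For S100A10 they were CAPG, an actin-capping protein (rho 0.75), LGALS3, the galactose-binding galectin-3 (0.67), and RAB4A, a recycling GTPase (0.67). S100A11 ranked 16th and ANXA2 40th in that order. For ANXA2 they were its own copy ANXA2P2 (0.87), the elongation factor EEF1A1 (0.81) and EIF4A1P10 (0.76), with S100A11 in 23rd place and S100A10 in 129th. For S100A16 they were KTI12 (0.70), LAMTOR1 (0.64) and TMEM185A (0.64). For S100A6 they were ENSG00000176183 (0.67), the ferritin copy FTH1P12 (0.65) and ENSG00000184188 (0.65), and the nearest member, S100A4, ranked 220th (0.39).

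ANXA2 has processed copies in the genome, and only reads that mapped to one place were counted, so their likeness bears on its counts. ANXA2P2 on chromosome 9 matched 98.4% of the ANXA2 coding bases, ANXA2P1 on chromosome 4 matched 93.8% of those it covers and ANXA2P3 on chromosome 10 matched 92.2%. Of all 50-base windows of the ANXA2 coding sequence, 59.4% occurred letter for letter in ANXA2P2, 7.33% in ANXA2P1 and 0.723% in ANXA2P3. To show how far the copies can be told apart, the 60 coding bases in which the closest copy has the most differences (coding bases 166 to 225, 5′ to 3′) are given in lower case, with the letters of a copy that differ from ANXA2 in capitals. They lie at chr15:60364447-60364506 (minus strand) for ANXA2, chr4:153308538-153308597 (minus) for ANXA2P1, chr9:33624439-33624498 (plus) for ANXA2P2 and chr10:64825737-64825796 (plus) for ANXA2P3, in GRCh38.
ANXA2: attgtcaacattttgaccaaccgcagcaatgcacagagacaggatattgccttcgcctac
ANXA2P1: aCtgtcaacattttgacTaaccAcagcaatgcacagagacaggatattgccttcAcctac
ANXA2P2: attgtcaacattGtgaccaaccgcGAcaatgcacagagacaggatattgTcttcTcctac
ANXA2P3: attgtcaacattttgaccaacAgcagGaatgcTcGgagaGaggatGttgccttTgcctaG
Even in this stretch ANXA2P2 differed at 5 of 60 bases, ANXA2P1 at 4 and ANXA2P3 at 8. Reads assigned to ANXA2P2 came to 1.09% of those of ANXA2 in the median CTC and 0.780% in the median cultured cell, and the pair kept a rho of 0.87. Its level was 119 ± 32.4 over mice and 53.1 in culture, higher in 5 of 5 mice, and by RPM it met the rule of size as higher in CTCs. The largest shares were in CTCs 5546-s4 (4.54%) and 5546-s8 (3.15%). ANXA2P1 had reads in 29 CTCs and one cultured cell, and ANXA2P3 in 20 and one. S100A11P1 and S100A11P5, copies of S100A11 with 92.3% and 87.3% identity to its coding sequence and not one 50-base window in common, had reads in 13 and 16 CTCs and in no cultured cell, and their rho with S100A9 was 0.82 and 0.86. How much of the ANXA2 signal had been lost to its copies was not tested.

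**Figure D4:**
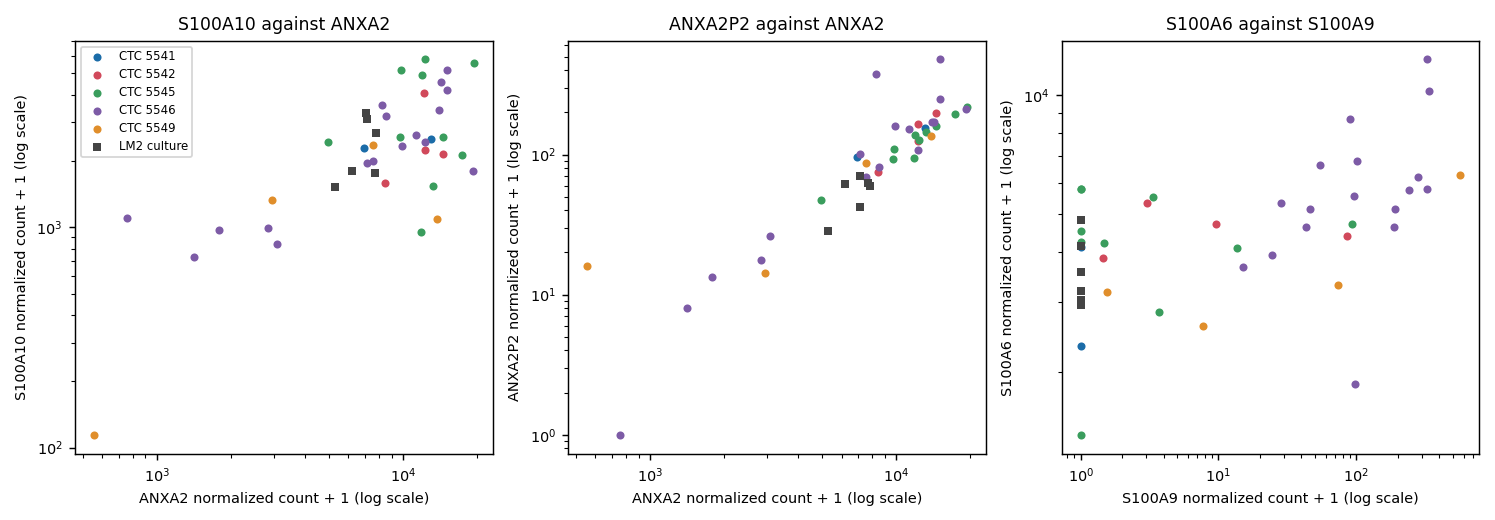
Points are cells, colored by mouse, with squares for the culture, and all axes are normalized count plus 1 on log scales. S100A10 is lowest in the CTC with the least ANXA2 (rho 0.54 over CTCs), ANXA2P2 follows ANXA2 closely (0.87), and S100A6 is higher in CTCs with more S100A9 (0.53), a gene at 0 in all 6 cultured cells.

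The rest of the S100 family was thinly represented. Of 12 other S100 genes listed, 7 had a row, and the remaining 5 were not analysed here. S100A9, a neutrophil and monocyte gene, had reads in 30 of 37 CTCs and in none of the cultured cells, at 68.4 ± 78.4 over mice. Mouse 5541 had none, and the other mouse means ran from 11.0 in 5545 to 162 in 5549. Pooled over all CTCs by RPM, it was at least 185-fold higher than the culture (66.4-fold without mouse 5546). The floor was 3 reads over the 6 cultured cells, and the bound does not hold for each mouse. S100P, found in many carcinomas, went the other way. It had 29 reads in 4 of 6 cultured cells and 0 of 37 CTCs had any (exact 95% interval 0 to 9.49% of cells with a read, which is no limit on cells expressing the gene). By the same reckoning with a floor of 3 reads over the 37 CTCs it was at least 81.6-fold lower, a bound that became 42.7-fold without LM-P4 and 44.6-fold without mouse 5546. Its culture values were 25.8 in LM-P4, 13.1 in LM-P3, 1.99 in LM-1 and 1.25 in LM-2, and LM-3 and LM-10 had none. The bound is on pooled reads and thus rested mostly on LM-P4 and LM-P3. The meaning of the letter P in these names was not given. S100A1, S100A5, S100A7A, S100B and S100Z had means of at most 1.05 in either group. Of the 7, only S100A9 reached the minimum mean of the rule of size, and it did not meet the rule. The others could not meet it at their levels, S100P included, whose culture mean was 7.02. For them the rule gave no answer.

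On chromosome 1, the stretch from S100A10 to S100A13 held 90 annotated genes, 62 of them protein-coding. Of the 53 protein-coding genes there that are not members, 9 had a row and S100A9 alone was found in at least 50% of CTCs. Hornerin (HRNR) and filaggrin (FLG), barrier proteins of the outer skin, had reads in 2 and 3 CTCs and in no cultured cell.

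Of 12 other annexins listed, 11 had a row and none met the rule of size, though 8 reached the minimum. ANXA1, the anti-inflammatory annexin, stood at 2656 ± 1153 over mice and 2170.1 in culture, and ANXA5, which binds phosphatidylserine, at 2999 ± 1625 and 2989. ANXA3, ANXA6, ANXA7 and ANXA11 lay below the culture in 5 of 5 mice, with log2 ratios of -0.98, -1.23, -0.71 and -0.80, and by RPM in 3 of 5 mice each. These are 4 of the 8 annexins that reached the minimum, where 60.3% of all genes considered were lower in 5 of 5 mice. In ANXA2, 25 CTCs exceeded every cultured cell, against at most 11 in any other annexin listed. Outside the annexins the count was 26 for VIM, and the share of all genes with such counts was not computed. Such counts also depend on the range of the cultured cells, 5296 to 7792 for ANXA2 and 926 to 4295 for ANXA1.

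Binding partners and receptors of these proteins were taken as another list. Of 18 listed, 17 had a row, 13 reached the minimum, 2 met the rule as lower, where 25.1% of all genes did, and none as higher. Of the 13, 7 were lower in 5 of 5 mice (53.8%), against 60.3% of all genes considered. The median log2 ratio of the 17 was -0.77, and that of all genes considered -1.20. The first includes partners below the minimum and the second does not, so the medians are not over like sets. CACYBP, the calcyclin-binding protein that takes S100A6 as its ligand, stood at 174 ± 93.8 over mice and 1105 in culture. Its highest CTC, 666 in mouse 5542, was below its lowest cultured cell, 744, so the groups did not overlap, which was the case for 42 of 9164 genes (0.458%) in this direction. Its log2 ratio was -2.66 by size factors, -1.90 by RPM (33 of 37 CTCs below the culture) and -1.24 in edgeR.

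SGTA, a cochaperone, stood at 59.1 ± 26.4 and 217, with 34 CTCs below the culture, a log2 ratio of -1.86 by size factors and -1.23 by RPM, where it no longer met the rule. Basigin (BSG), a surface receptor for S100A9, was at 625 ± 297 and 1596, and MYH9, the nonmuscle myosin that S100A4 binds, at 118 ± 79.9 and 246. The giant scaffold AHNAK, which binds the S100A10 and annexin A2 tetramer, was at 145 ± 92.8 and 96.3, above the culture in 3 of 5 mice. Of the plasminogen system, PLAU (urokinase) stood at 863 ± 405 and 1336, PLAUR (its receptor) at 532 ± 414 and 554, and PLAT (tissue activator) at 27.0 ± 37.5 and 94.2. By RPM the log2 ratio of PLAU turned from -0.63 to 0.14, that of PLAUR from -0.06 to 0.66, and that of PLAT went from -1.76 to -1.35. The receptors AGER and TLR4 had reads in 2 and 9 CTCs.

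**Figure D5:**
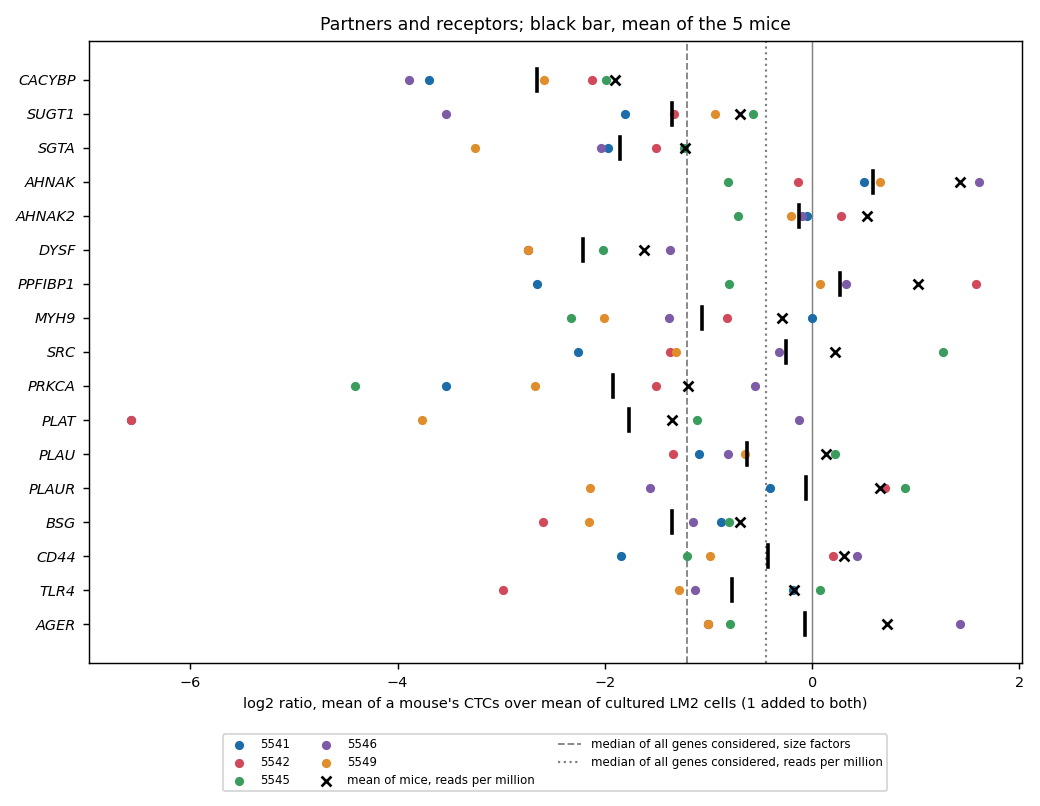
Partners and receptors are plotted as in the ratio plot of the 10 genes, with colored points for the 5 mice, a black bar for the mean of mice by size factors and a cross by RPM. CACYBP and SGTA lie below the culture in all 5 mice (mean of mice -2.66 and -1.86), while AHNAK and PPFIBP1 have mice on both sides of zero.

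Reads of EPCAM, ERBB2 and EGFR, common targets for capturing CTCs, were at 0 together in 3 CTCs (5545-6, 5545-11 and 5546-s9). All 3 had ANXA2 and S100A10 reads and 2 had S100A16. ANXA2 stood at 12316, 19404 and 1418 in them and S100A10 at 5787, 5558 and 733. The 5 members with the broadest detection (ANXA2, S100A4, S100A6, S100A10 and S100A11) had reads in every one of the 37 CTCs. Their joint detection, in these 3 CTCs too, follows from that choice. The share of all genes with reads in all 37 CTCs was not counted. Each CTC had reads of 7 to 10 of the 10 genes.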

How the data were processed

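Single cells were sequenced with SMARTseq2, which has no molecular identifiers, and 37 CTCs and 6 cultured LM2 cells were used. A further 4 CTC samples labeled as excluded were not analysed here. The deposited values were signal per gene that the authors made by counting uniquely mapped, unstranded STAR 2.7.10a reads (GRCh38, GENCODE 38) and dividing by DESeq2 1.42.1 size factors, after removing CTCs with under 50% unique mapping or over 50% mitochondrial reads. Every value was a whole number of reads times a step per cell (tolerance 0.001), and the recovered reads, 469614 to 2041333 per CTC, gave RPM (reads scaled to the same total in each cell) and the sums per mouse. Counting limits the precision of low genes.

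The main comparison was the rule of size, without a test (Python 3.11.15). The count test was edgeR 4.0.16 (TMM, filterByExpr, Benjamini-Hochberg at 0.05, two-sided, R 4.3.3) on 5 mouse sums and 1 culture sum, tested on simulated data beforehand, with DESeq2 1.42.0 as an alternative. An exact permutation of 5 mice against 1 culture cannot go below p = 0.167. The genes named were the 10 members, listed other S100 genes, annexins, copies, partners and markers, genes between the outermost S100 members, the 3 genes most alike, and genes that set an extreme. Members and lists were chosen with earlier results of these data known. Alternatives changed scaling, depth, average, pseudocount, fold, filter, tool and samples. Those without 4 CTCs in edgeR and the correlations, and RPM in the correlations and in the counts of CTCs outside the range of the culture, and the bounds of S100A9 and S100P without single mice or cells, were added after seeing the data. Transcript lengths and copies came from GENCODE 44 and promoters from RefSeq GRCh38.p14, in which 10 of 10 members matched.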

Additional observations from a re-analysis of the deposited data

Results flagged for a closer look

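Of 48 groups of cells or mouse means tested for a single value far from the rest (Dixon's 95% limit), 7 held one. For normally distributed values chance gives about 1 in 20, a rate that these skewed counts need not follow, and the 3 cases of S100A14 are single nonzero values among zeros, which always pass. S100A4 in CTC 5545-6 stood at 3015 normalized counts, and the next CTC of that mouse at 1015. S100A13 stood at 429 in CTC 5542-8 (next 100.4) and at 419.5 in CTC 5545-6 (next 148). S100A14 stood at 6.42 in CTC 5545-11, at 1.61 in cultured cell LM-P4 and at 0.642 as the mean of mouse 5545, with all others at 0 in each case. The mean S100A16 of mouse 5542 was 2499, against 1256 in the next mouse.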

How the results depend on the processing

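None of the 10 genes met the rule of size under any alternative. The number of all genes meeting it, 2322, became 826 with RPM (61 higher and 765 lower, against 24 and 2298), 857 with cells thinned to 469614 reads and 493 at 4-fold, 3384 with the median of mouse medians (9 higher and 3375 lower), 2920 with no minimum, and ranged from 1967 to 2792 when one mouse or cultured cell was left out. The median log2 ratio of the 10 genes, 0.27, became 1.00 with RPM and 0.98 after thinning, scalings that also move the median of all genes. edgeR's count of 0 became 27 with no filter and 20 with DESeq2, and was 0 to 1 when one mouse or cultured cell was left out (1 without mouse 5545). Of 180 ratios of single members under alternatives, 170 stayed within 1 SD over mice, and 14 changed sign, all of S100A3, S100A10, S100A13 or S100A14. That SD was wide for S100A2 (2.41) and S100A3 (1.91). S100A6, S100A10, S100A16 and ANXA2 moved by more than 1 SD both with RPM and after thinning. S100A14 did so with a pseudocount of 0.1 and without LM-P4. The median correlation of 0.26 was 0.20 to 0.32 under the alternatives. The cause of these changes was not tested. No paired analysis was possible because the culture is one sample and replicate numbers do not tie cultured cells to mice. At these depths S100A14 had reads in 2 cells in all, and the culture, a single sample, gave no spread of its own for any gene.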
